A study of Mus musculus with 2 samples.

Results

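The cells described here are the mature multiciliated cells of cultured mouse ventricular wall, taken as the cells that the submitters' cell metadata labels MCCs. They were 2311 of 16401 cells, with 2047 of 12028 in replicate 1 and 264 of 4373 in replicate 2. Both libraries came from newborn mice of age P0-P2, replicate 1 from C57BL/6N and replicate 2 from C57BL/6J animals, and no transgene, mutation or drug treatment is named for either. Cells from the lateral ventricular walls were cultured in serum until confluent, loosely attached cells were shaken off, and serum was withdrawn for 2 days before trypsin dissociation and 10x Genomics 3′ v3 library preparation. Walls were pooled in a flask, and the labels do not say how many animals, or whether different litters, days or sequencing runs, lie behind the replicates. All p-values therefore rest only on these 2 libraries and do not cover spread between animals. In the main fit a shift shared by a whole library is removed first. The p-values then set each change against the variation that remains between the libraries over 13 populations. Mouse substrain, sex, library and sequencing depth cannot be told apart.

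Ependymal cells line the brain ventricles and carry a tuft of motile cilia that moves cerebrospinal fluid. They arise from radial glia that leave the cell cycle, build a large number of centrioles, many of them on deuterosomes, dock these at the apical surface as basal bodies and extend an axoneme from each. Mature ependymal cells also have some glial features, a group that includes the intermediate filaments vimentin and GFAP and the calcium-binding protein S100b. In the deposited labels MCCs follow early, mid and late deuterosomal cells and a population called EarlyMCCs, and 2 non-cycling progenitor populations, progenitors I and II, stand before these stages.

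Of the 4 marker genes used to check the label, Sntn encodes sentan of the ciliary tip, Ccdc153 a protein of the nexin-dynein regulatory complex and Fam166b a microtubule inner protein. Tmem212 encodes a membrane protein that is used as an ependymal marker. The 250 bases before the start of each marker gene are shown because ciliary genes are known targets of RFX factors, which bind X-box motifs, and of the forkhead factor FOXJ1. They are from RefSeq on GRCm38.p6 (the build called mm10), at chr14:13670626-13670875 on the plus strand for Sntn, chr3:27896369-27896618 on the minus strand for Tmem212, chr9:44240427-44240676 on the plus strand for Ccdc153 and chr4:43429135-43429384 on the minus strand for Fam166b. They are written 5′ to 3′ along the gene, and capitals mark any GTTGCC (the core of an X-box, GGCAAC on the other strand) and any TGTTTAC (a forkhead core, GTAAACA on the other strand).
Sntn: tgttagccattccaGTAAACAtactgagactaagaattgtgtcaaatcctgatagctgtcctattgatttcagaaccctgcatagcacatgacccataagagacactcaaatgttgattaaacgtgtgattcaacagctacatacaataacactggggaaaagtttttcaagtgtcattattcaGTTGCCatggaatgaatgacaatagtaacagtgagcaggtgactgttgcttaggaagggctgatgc
Tmem212: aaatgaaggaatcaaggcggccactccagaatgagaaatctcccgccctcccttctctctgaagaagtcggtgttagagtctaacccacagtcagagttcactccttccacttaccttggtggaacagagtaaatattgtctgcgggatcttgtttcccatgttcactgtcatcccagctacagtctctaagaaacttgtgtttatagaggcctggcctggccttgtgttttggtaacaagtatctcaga
Ccdc153: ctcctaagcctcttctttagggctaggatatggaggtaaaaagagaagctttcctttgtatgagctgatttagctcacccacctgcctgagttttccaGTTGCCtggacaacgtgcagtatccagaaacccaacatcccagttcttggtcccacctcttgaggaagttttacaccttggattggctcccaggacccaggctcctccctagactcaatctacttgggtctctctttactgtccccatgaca
Fam166b: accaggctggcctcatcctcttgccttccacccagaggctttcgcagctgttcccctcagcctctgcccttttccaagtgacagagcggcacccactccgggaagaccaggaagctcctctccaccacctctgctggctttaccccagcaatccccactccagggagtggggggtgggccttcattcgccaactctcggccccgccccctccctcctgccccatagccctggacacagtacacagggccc

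The Sntn window held both motifs, with the X-box core starting 66 bases and the forkhead core 236 bases before the gene start. The Ccdc153 window held the X-box core, 152 bases before the start. The windows of Tmem212 and Fam166b held neither string. Of all 32851 RefSeq windows of this length, 10.4% held the X-box core and 3.17% the forkhead core. Among 100 windows matched to 86 of the 104 genes in the axoneme lists used below (dynein arms, dynein assembly factors, radial spokes with the central apparatus, and microtubule inner proteins), 31.0% held the X-box core and 5.00% the forkhead core. For 788 windows of genes that were higher in MCCs than in EarlyMCCs the shares were 9.26% and 2.66%, and for 988 windows of genes that were lower they were 11.7% and 2.23%. A match describes these letters in this window and is not evidence of binding.

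The share of MCCs was 17.0% in replicate 1 (exact 95% bounds 16.4 and 17.7) and 6.04% in replicate 2 (bounds 5.35 and 6.78). Among cells with a population name the shares were 20.8% and 6.93%, and among cells of the 5 lineage stages they were 43.7% and 19.6%. The intervals cover counting error only, and shaking and trypsin can set such shares. The median MCC held 13053 unique molecular identifiers (UMIs, counts of captured RNA molecules) in replicate 1 and 16747.5 in replicate 2, against 16265 and 19910.5 in EarlyMCCs. Summed over its cells, the population held 30710678 and 4791663 UMIs. A gene with no UMI in the sum could therefore still lie at up to 0.0977 CPM (its UMIs per sum, scaled to the same total of counts in every sum) in replicate 1 and 0.626 CPM in replicate 2, the level of 3 UMIs. The libraries shared 13 cell barcodes, 5 of which carried an MCC.

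Nearly all MCCs carried the deposited cell cycle class of resting cells. The class G0 was given to 2045 of 2047 cells in replicate 1 and all 264 in replicate 2, and the other 2 cells were G1. In EarlyMCCs 51 of 656 cells (7.77%) and 6 of 152 cells (3.95%) were of class G2/M. The sources used here do not say how the classes were assigned.

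The 4 markers were higher in MCCs than in non-cycling progenitors in both libraries, and none of them passed the test against EarlyMCCs (described below) at edgeR adjusted p = 0.111 for Sntn, 0.249 for Tmem212, 0.202 for Fam166b and 0.837 for Ccdc153. Sntn stood at 19.0 CPM in replicate 1 and 16.1 in replicate 2 of MCCs, and at 6.63 and 13.4 in EarlyMCCs. Non-cycling progenitors held 4 UMIs of Sntn in replicate 1 (3 in progenitors I, 1 in progenitors II) and 2 in replicate 2, where MCCs held 582 and 77. Tmem212 stood at 431 and 230 CPM in MCCs, 157 and 179 in EarlyMCCs, and 1.97 and 0.649 in progenitors (mean of progenitors I and II). Fam166b stood at 253 and 202 CPM in MCCs, 181 and 170 in EarlyMCCs, and 22.6 and 17.5 in progenitors. Ccdc153 was lower in MCCs than one stage earlier in both libraries, at 997 and 895 CPM in MCCs and 1143 and 1064 in EarlyMCCs, and stood at 19.7 and 12.4 in progenitors. The population names presumably rest on these same counts, so the markers check the name and are no separate finding.

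Cell by cell the markers were unequal. After each cell was thinned to 5000 UMIs, which left out 34 and 3 shallower MCCs, Ccdc153 was found in 93.8% of MCCs in replicate 1 and 91.6% in replicate 2, and Fam166b in 69.2% and 58.2%. Tmem212 was found in 59.4% and 42.1%, and Sntn in 6.71% and 7.28%. In thinned EarlyMCCs the shares were 96.3% and 94.0% for Ccdc153, 55.7% and 63.3% for Fam166b, 35.3% and 37.3% for Tmem212, and 2.47% and 4.67% for Sntn. Ccdc153 was thus found in a larger share of EarlyMCCs than of MCCs in both libraries, and Fam166b in replicate 2. Unthinned, the Sntn shares in MCCs were 15.4% and 13.3%. In microglia, which should lack these genes and had median depths of 13668 and 17034 UMIs, thinned shares were 18.8% and 2.56% for Ccdc153, 9.06% and 0% for Fam166b, 7.67% and 0% for Tmem212, and 0.697% and 0% for Sntn. The 39 thinned microglia of replicate 2 are too few for a firm background.

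**Figure D1:**
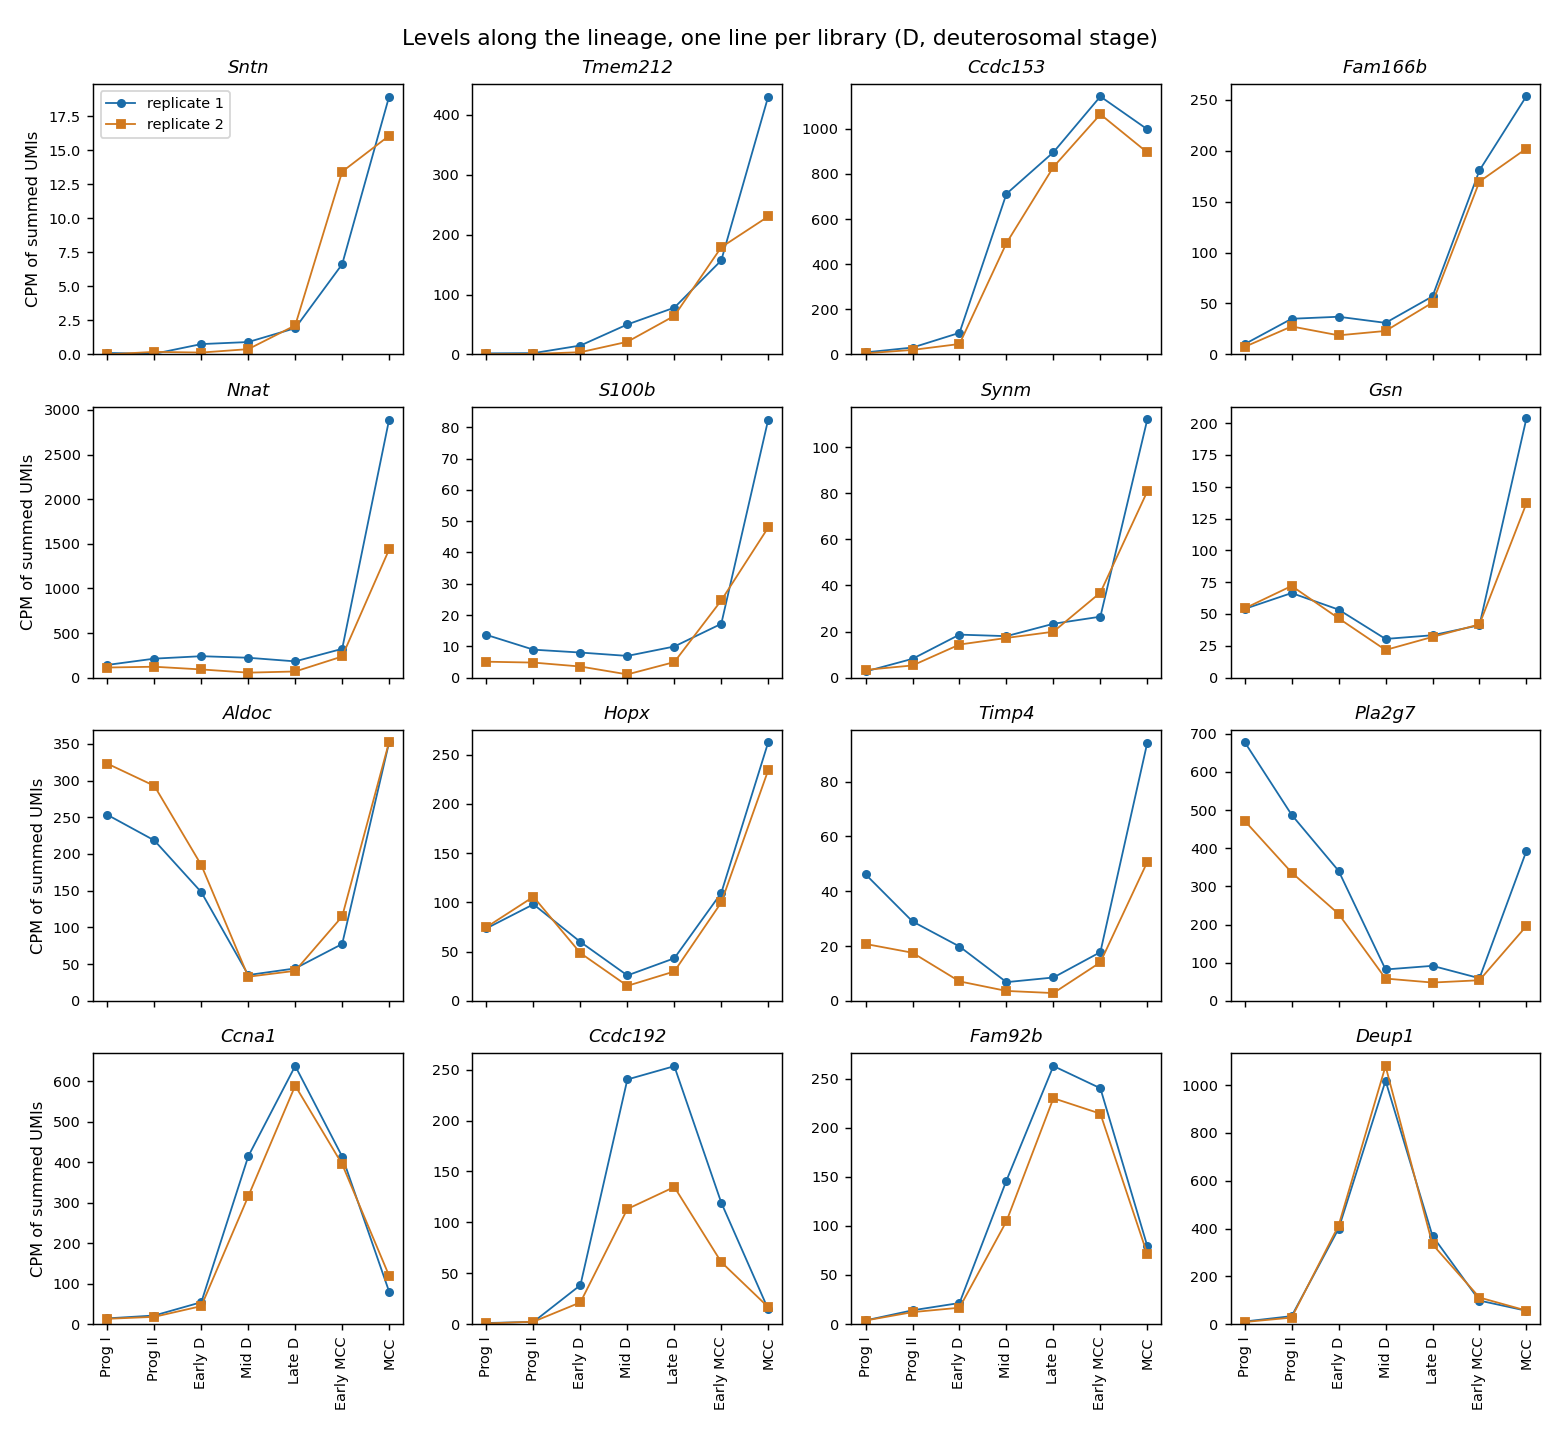
Level in CPM of summed UMIs (linear axis from 0) along the 2 non-cycling progenitor populations and the 5 lineage stages, with 1 line per library. The top row shows the 4 markers of the label, the second row genes whose level in MCCs is above every earlier stage, the third row glial genes that are low at the mid and late deuterosomal stages and higher in MCCs, and the bottom row genes that peak before MCCs.

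The step from EarlyMCCs to MCCs asks what changes once the cilia program is under way. The sums of counts per population and library were compared in a model with population and library as terms (edgeR quasi-likelihood test, two-sided, Benjamini-Hochberg adjusted p below 0.05, 15877 genes). In MCCs 724 genes were higher (4.56% of those tested) and 999 lower (6.29%), together 1723 (10.9%), and 523 of these differed by at least 2-fold. The median log2 fold change over all genes was 0.02. Labels presumably rest on the same counts. Of the 1723 genes 1707 had the same sign in each library, which the joint test favours by its construction, and the others differed in sign. Without the library term in the model 135 genes passed (edgeR adjusted p), with only the 5 lineage stages in the fit 3243 did, and without the MCCs and EarlyMCCs of replicate 1 or of replicate 2 38 and 1087 did. Of the 61 genes named here by rule that passed, 10 kept the call in every alternative, 48 lost it without replicate 1 and 8 without replicate 2.

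Without the library term 40 of these 61 genes lost the call. The 10 genes whose call held in every alternative were Gsn, which rose, and Ccdc192, Cox6b2, Ccna1, Nt5dc2, Aard, Ecscr, Fam92b, Traf3ip2 and Ccnb2, which fell. Gsn, which encodes the actin-severing protein gelsolin (chr2:35256380-35307892, plus strand), stood at 204 and 137 CPM in MCCs against 41.2 and 41.9 in EarlyMCCs. Its log2 fold change was 2.06 ± 0.14 (SE, n = 2 libraries, edgeR adjusted p = 1.32e-09). Gsn was also above the progenitor mean of 60.2 and 63.2 CPM in both libraries. In cells thinned to 5000 UMIs it was found in 42.6% and 38.3% of MCCs, with a median of 0 UMIs in each library. The shares were 18.1% and 12.0% in EarlyMCCs and 47.4% and 46.2% in microglia.

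**Figure D2:**
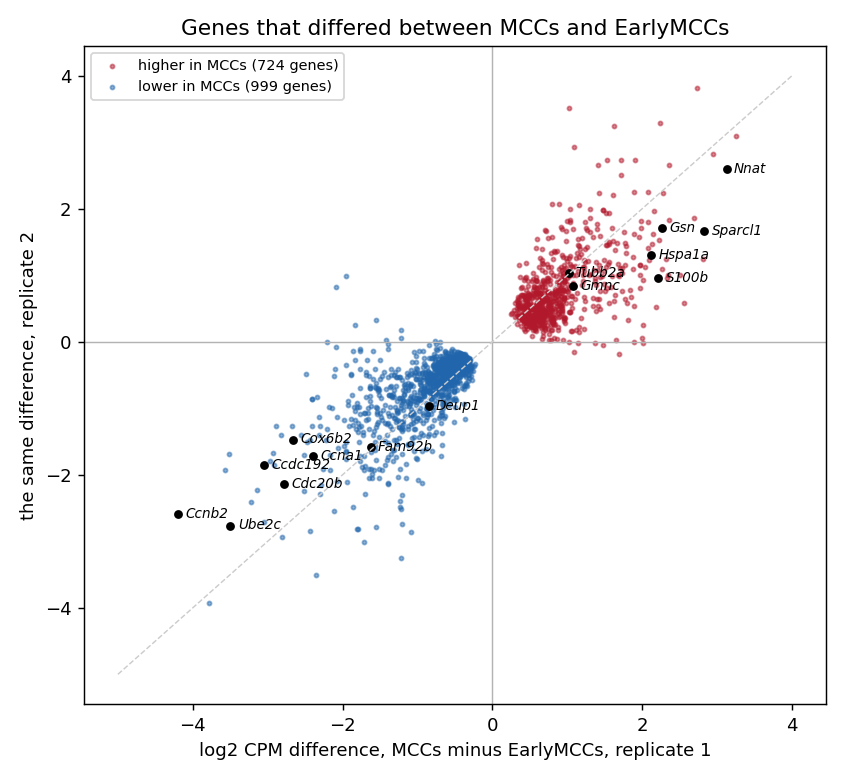
Difference in log2 CPM between MCCs and EarlyMCCs in replicate 1 (x axis) and replicate 2 (y axis) for the 724 genes that were higher and the 999 that were lower in MCCs, with the diagonal dashed. Nnat and Sparcl1 lie far out among the genes that rose and Ccnb2 and Ube2c among those that fell, and a few points lie in the quadrants where the libraries differ in sign.

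Of genes whose log2 CPM averaged 5 or more, Nnat had the largest increase from EarlyMCCs. Nnat, an imprinted gene encoding the small membrane protein neuronatin (chr2:157560078-157562522, plus strand), stood at 2892 CPM in replicate 1 and 1436 in replicate 2 of MCCs, against 323 and 237 in EarlyMCCs. Its log2 fold change was 2.87 ± 0.44 (SE, n = 2 libraries, edgeR adjusted p = 0.00111). At every earlier stage of the lineage and in progenitors Nnat lay between 56.0 and 323 CPM, so MCCs did not overlap any of them. For EarlyMCCs the choice of Nnat by its increase over them favours this. In thinned cells it was found in 94.7% and 84.3% of MCCs with a median of 10 and 4 UMIs per 5000, and in 60.6% and 54.7% of EarlyMCCs with a median of 1 in each. Microglia showed it in 24.7% and 5.13% of thinned cells. Nnat did not pass without the library term (edgeR adjusted p = 0.0779) or without replicate 1 (adjusted p = 0.244).

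Another 3 genes rose to levels that no earlier stage of the lineage had in its own library. Synm, which encodes the intermediate filament protein synemin (chr7:67730160-67759742, minus strand), stood at 112 and 80.8 CPM in MCCs against 26.4 and 36.9 in EarlyMCCs (log2 fold change 1.72 ± 0.21, edgeR adjusted p = 3.81e-05), and at 5.42 and 4.32 in progenitors. S100b, the calcium-binding protein of astrocytes and ependyma, stood at 82.5 and 48.0 CPM against 17.2 and 24.7 (1.86 ± 0.38, edgeR adjusted p = 0.00652), and at 11.3 and 4.95 in progenitors. Sparcl1, the secreted matrix protein hevin, stood at 286 and 163 CPM against 39.2 and 51.5 (2.38 ± 0.30, edgeR adjusted p = 0.000211), with 101 and 76.5 in progenitors. Without replicate 1 none of the 3 passed, at edgeR adjusted p = 0.0879 for Synm, 0.580 for S100b and 0.145 for Sparcl1. S100b also did not pass in DESeq2 (adjusted p = 0.191).

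A further 3 genes were lower at the mid deuterosomal stage than in progenitors I and rose to their highest level of the lineage in MCCs. Aldoc, the glycolytic aldolase of astrocytes, went from 253 and 323 CPM in progenitors I to 35.2 and 32.9 in mid deuterosomal cells, 77.5 and 115 in EarlyMCCs and 352 and 353 in MCCs. Hopx, a small homeodomain protein of radial glia, went from 73.7 and 75.0 CPM to 25.8 and 15.3, then 110 and 100, then 263 and 234 at the same 4 stages. Timp4, a metalloproteinase inhibitor, went from 46.2 and 20.8 to 6.83 and 3.62, then 17.8 and 14.1, then 94.3 and 50.7 CPM. Both libraries showed the dip and the later rise for each of the 3 genes, and Hopx was above its level in progenitors I already in EarlyMCCs. From EarlyMCCs to MCCs the log2 fold changes were 1.91 ± 0.30 for Aldoc, 1.23 ± 0.26 for Hopx and 2.26 ± 0.19 for Timp4 (SE, n = 2 libraries, edgeR adjusted p = 0.00122, 0.00946 and 4.69e-08). Hopx lost its call without either library (edgeR adjusted p = 0.466 without replicate 1 and 0.0756 without replicate 2), Aldoc without replicate 1 (0.279) and Timp4 without the library term (0.118).

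Pla2g7, which encodes the phospholipase that degrades platelet-activating factor, rose from 59.3 and 54.0 CPM to 393 and 196 (2.34 ± 0.39, edgeR adjusted p = 0.00194), but its level in MCCs stayed below the 678 and 472 of progenitors I. Ndrg2, a gene of astrocytes, was similar, with 214 and 153 CPM in MCCs, 61.3 and 54.7 in EarlyMCCs and 293 and 245 in progenitors. The other large increases were Ucma (1.55 ± 0.29) and Cnmd (1.48 ± 0.22), secreted proteins known from cartilage, and Cpne8, a calcium-dependent membrane-binding protein at 63.0 and 51.3 CPM against 22.6 and 16.9. Cpne8 did not pass without the library term (edgeR adjusted p = 0.0604). Ucma differed between the libraries in level, at 270 and 85.1 CPM in MCCs and 89.6 and 30.0 in EarlyMCCs. Without replicate 1 Pla2g7, Ndrg2, Ucma and Cnmd did not pass.

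The list of 24 radial glia and astroglia genes had 4 higher in MCCs than in EarlyMCCs (Aldoc, Hopx, Aldh1l1 and Id2), 0 lower and 20 not past the test, or 16.7% higher beside 4.56% of all genes. The median log2 fold change of the list was 0.41 beside 0.02 over all genes, and 22 of 24 values were above 0. The summed level of the list was 17719 and 13656 CPM in MCCs, 13626 and 9950 in EarlyMCCs, and 33542 and 25551 in progenitors I. Apoe made up the largest part of these sums (333872 and 32434 UMIs in MCCs). The list summed to 42424 and 27174 CPM in microglia, so its sum alone is no measure of astroglial identity. Gfap was at 355 and 590 CPM in MCCs against 140 and 252 in EarlyMCCs (1.27 ± 0.61, edgeR adjusted p = 0.228), and Vim at 5985 and 6624 against 3566 and 4236 (0.68 ± 0.38, adjusted p = 0.304). Both passed with only the 5 lineage stages in the fit (edgeR adjusted p = 0.000789 and 1.64e-06).

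Id3 and Fabp7, chosen as examples after their values were seen, stayed below their progenitor level in MCCs. Id3, an inhibitor of differentiation, stood at 988 and 815 CPM in progenitors I, 19.2 and 18.1 in EarlyMCCs and 33.0 and 33.0 in MCCs (edgeR adjusted p = 0.227 against EarlyMCCs). Fabp7, the fatty acid-binding protein of radial glia, stood at 248 and 241 CPM in MCCs, 324 and 276 in EarlyMCCs, and 1378 and 1551 in progenitors. Whether free RNA from progenitors adds to the glial transcripts of MCCs was not tested.

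Of the 25 tested genes of the ependymal surface, junction and glial list, Nnat, S100b and Ttyh1 were higher than in EarlyMCCs and 0 were lower (12.0% higher beside 4.56% of all genes), with a list median of 0.26. Ttyh1, a membrane protein of glia, was at 153 and 142 CPM against 79.8 and 98.1 (0.75 ± 0.21, edgeR adjusted p = 0.0272). Cd24a, a surface glycoprotein used to sort ependymal cells, was at 464 and 498 against 305 and 360 CPM (0.52 ± 0.21, adjusted p = 0.130), and the water channel gene Aqp4 at 437 and 368 against 256 and 232 (0.71 ± 0.47, adjusted p = 0.405). Both were higher in MCCs in each library but did not pass the test.

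Genes of the axoneme passed the test between EarlyMCCs and MCCs in shares near or below those of all genes (4.56% higher, 6.29% lower). Of 30 dynein arm and docking genes 1 was higher (Dnah11, 3.33%) and 2 lower (Dnah3 and Dnah8, 6.67%). Dnah11, an outer arm heavy chain, was at 121 and 112 CPM against 79.6 and 79.7 (0.54 ± 0.17, edgeR adjusted p = 0.0456), and lost the call in 6 of 10 alternatives, among them those without either library. Dnah3, an inner arm heavy chain, fell from 103 and 124 to 53.8 and 73.5 CPM, and lost the call in 3 of 10 alternatives. Dnah8 rested on 8 and 1 UMIs in MCCs. Radial spoke and central apparatus genes had 0 higher and 1 of 27 lower (Ropn1l), microtubule inner proteins and tektins 0 higher and 1 of 26 lower (Ribc1), and intraflagellar transport and BBSome genes 1 of 35 higher (Ttc21b) and 0 lower. Their list medians were 0.02 for dynein arms, -0.09 for radial spokes, -0.10 for inner proteins and -0.14 for intraflagellar transport, beside 0.02 over all genes. In the same order 16 of 30, 10 of 27, 10 of 26 and 8 of 35 log2 fold changes were above 0. Hydin, of the central apparatus, stood at 183 and 224 CPM in MCCs, 199 and 274 in EarlyMCCs and 7.44 and 8.02 in progenitors. Near-identical members such as Dnah7a, Dnah7b and Dnah7c may share reads.

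The dynein assembly factors had 0 higher and 3 of 16 lower (18.8% beside 6.29% of all genes), namely the chaperone subunits Pih1d1 and Ruvbl2 and the factor Dnaaf1. The list median was -0.22, and 1 of 16 log2 fold changes was above 0. Ruvbl2 was at 183 and 203 CPM in MCCs and 301 and 306 in EarlyMCCs (-0.67 ± 0.13, edgeR adjusted p = 0.0012). Of 31 basal body, docking and transition zone genes 0 were higher and 3 lower (9.68%, near the share of all genes), namely Fam92b, Cby1 and B9d2. That list had a median of -0.14, with 6 of 31 log2 fold changes above 0. Fam92b and Cby1 are known partners at the base of cilia. Fam92b (chr8:120166397-120177466, minus strand) fell from 240 and 214 CPM in EarlyMCCs to 79.4 and 71.2 in MCCs (-1.62 ± 0.15, edgeR adjusted p = 7.16e-07), and Cby1 from 349 and 350 to 188 and 204 CPM (-0.85 ± 0.19, adjusted p = 0.00544). Without replicate 1 Ruvbl2 and Cby1 did not pass (edgeR adjusted p = 0.347 and 0.373).

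Of genes whose log2 CPM averaged 5 or more, the largest decreases included Ccna1, Ccdc192 and Cox6b2, which were highest in late deuterosomal cells. Ccna1, an A-type cyclin (chr3:55045469-55055501, minus strand), rose to 638 and 589 CPM in late deuterosomal cells and stood at 414 and 395 in EarlyMCCs and 80.3 and 119 in MCCs. Its log2 fold change from EarlyMCCs was -2.07 ± 0.23 (SE, n = 2 libraries, edgeR adjusted p = 6.3e-05). It was found in 26.8% and 38.3% of thinned MCCs, in 78.7% and 82.0% of thinned EarlyMCCs, and in 7.67% and 0% of microglia. Ccdc192, a coiled-coil protein gene, fell from 119 and 60.9 to 14.6 and 16.7 CPM (-2.75 ± 0.22), and Cox6b2, the testis form of a cytochrome c oxidase subunit, from 272 and 162 to 43.8 and 58.4 CPM (-2.17 ± 0.24). The groups did not overlap for any of the 3, which their choice by the test and by direction in both libraries favours. The other decreases named at that level, from -1.90 to -1.52, were Nt5dc2, Aard, Lockd (a long noncoding RNA), Dapl1, Ecscr, C1ql3, Traf3ip2 and Gstm6.

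Of 23 centriole amplification genes 5 were lower in MCCs (Cdc20b, Ccdc78, Deup1, Ccp110 and Cep63, 21.7% beside 6.29% of all genes) and 1 was higher (Cdk5rap2), with a list median of 0.05. Deup1, the core protein of deuterosomes, went from 1019 and 1080 CPM in mid deuterosomal cells to 98.4 and 111 in EarlyMCCs and 55.8 and 56.6 in MCCs (-0.91 ± 0.20 from EarlyMCCs, edgeR adjusted p = 0.00818). It lost the call without either library (edgeR adjusted p = 0.364 and 0.0573). MCCs still held more Deup1 than progenitors, at 22.1 and 17.9 CPM (1.64 ± 0.18, edgeR adjusted p = 5.86e-07). Cdc20b, a relative of the mitotic activator Cdc20, fell from 5.62 and 8.12 to 0.651 and 1.67 CPM, which is 20 and 8 UMIs. Cdk5rap2, of the pericentriolar material, rose from 127 and 121 to 177 and 161 CPM. Both Cdc20b and Cdk5rap2 lost the call without replicate 1, and Cdk5rap2 also without the library term. Plk4, the kinase that starts centriole formation, was at 7.33 and 11.9 CPM in MCCs against 9.99 and 10.3 (edgeR adjusted p = 0.602).

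Genes of G2 and M phase (40 tested) had 11 members lower than in EarlyMCCs (27.5% beside 6.29% of all genes) and 0 higher, with a list median of -0.55. Ccnb2, a B-type cyclin, fell from 23.5 and 18.7 CPM to 1.11 and 2.92 (-3.98 ± 0.28, edgeR adjusted p = 4.76e-09), where progenitors I and II held between 0.858 and 1.22 CPM. Ube2c, the ubiquitin-conjugating enzyme of mitotic exit, fell from 27.0 and 14.1 to 2.25 and 1.88 CPM (-3.44 ± 0.43, adjusted p = 0.000195), and lost its call without replicate 1. Cdk1 fell from 37.2 and 30.0 to 21.1 and 21.3 CPM (-0.72 ± 0.20, adjusted p = 0.0212), and lost the call in 8 of 10 alternatives, DESeq2, RLE factors and thinned cells among them. The summed level of the list was 379 and 404 CPM in MCCs and 590 and 521 in EarlyMCCs, where 51 and 6 cells were of class G2/M. Its part in the difference was not tested.

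Of 16 transcription factors and regulators of multiciliation 15 did not pass the test at this step. The list had 1 higher (6.25% beside 4.56% of all genes) and 0 lower (beside 6.29%), which is near the share of all genes. Foxj1, the main activator of motile cilia genes, stood at 556 and 728 CPM in MCCs against 567 and 772 in EarlyMCCs (-0.07 ± 0.42, edgeR adjusted p = 0.952). Gmnc, the regulator at the top of the pathway, was the 1 that rose, from 16.5 and 13.7 to 36.0 and 24.6 CPM (1.02 ± 0.17, edgeR adjusted p = 0.000284). It had been at 47.5 and 40.6 CPM in progenitors II and 8.88 and 5.18 in mid deuterosomal cells, so it too dipped and returned. Gmnc did not pass without the library term (edgeR adjusted p = 0.156) or without replicate 1 (0.477). Mcidas, its relative, rested on 15 and 2 UMIs in MCCs and did not pass.

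Tubulins moved both ways. Tubb2a, a beta-tubulin, rose from 250 and 255 to 516 and 523 CPM (1.03 ± 0.18, edgeR adjusted p = 0.000872), after 67.9 and 52.5 in mid deuterosomal cells and 581 and 700 in progenitors I. Tubb2a lost its call without replicate 1. Tuba1b, an alpha-tubulin, fell from 533 and 1156 to 172 and 515 CPM (-1.40 ± 0.14, edgeR adjusted p = 2.42e-07), and was higher in replicate 2 in both populations. It did not pass without the library term (edgeR adjusted p = 0.654), and related tubulin genes may share reads. Ttll13, Tpgs2 and Tubb3 also passed as lower among 28 genes of tubulins and tubulin modification (14.3% with Tuba1b, beside 6.29% of all genes). Tubb3 rested on 37 and 4 UMIs in MCCs and 62 and 1 in EarlyMCCs, so replicate 2 went the other way. Its log2 fold change was 1.40 without replicate 1, and its call was also lost in DESeq2, in thinned cells and without the library term.

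Among signalling lists, the polarity receptor Fzd6 was the 1 of 20 planar cell polarity genes that rose, from 10.6 and 13.4 to 16.3 and 17.7 CPM. Its list thus had 5.00% higher, near the 4.56% of all genes. Of 18 Notch pathway genes Hey2, a target, was higher (5.56% beside 4.56% of all genes). Dlk1 and Hes6 were lower (11.1% beside 6.29%). Of 25 immediate early and stress genes 6 were higher (Hspa1b, Hspa1a, Atf3, Fosl2, Klf6 and Dnajb1, 24.0% beside 4.56% of all genes) and 0 lower, with a list median of 0.33. Hspa1a, an inducible Hsp70 chaperone, was at 44.3 and 35.1 CPM in MCCs against 9.82 and 14.1 in EarlyMCCs (1.90 ± 0.22, edgeR adjusted p = 1.17e-05). Hspa1a and Hspa1b are near-identical and may share reads. The summed level of the list was lower in MCCs than in EarlyMCCs, at 6778 and 10891 against 7593 and 13274 CPM. Hsp90aa1 made up the largest part of these sums (93529 and 21018 UMIs in MCCs). The sum thus does not describe the list as a whole, where 18 of 25 log2 fold changes were above 0. Without replicate 1 Fzd6, Hey2, Dlk1, Hes6, Hspa1a and Hspa1b did not pass (edgeR adjusted p from 0.192 to 0.793).

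**Figure D3:**
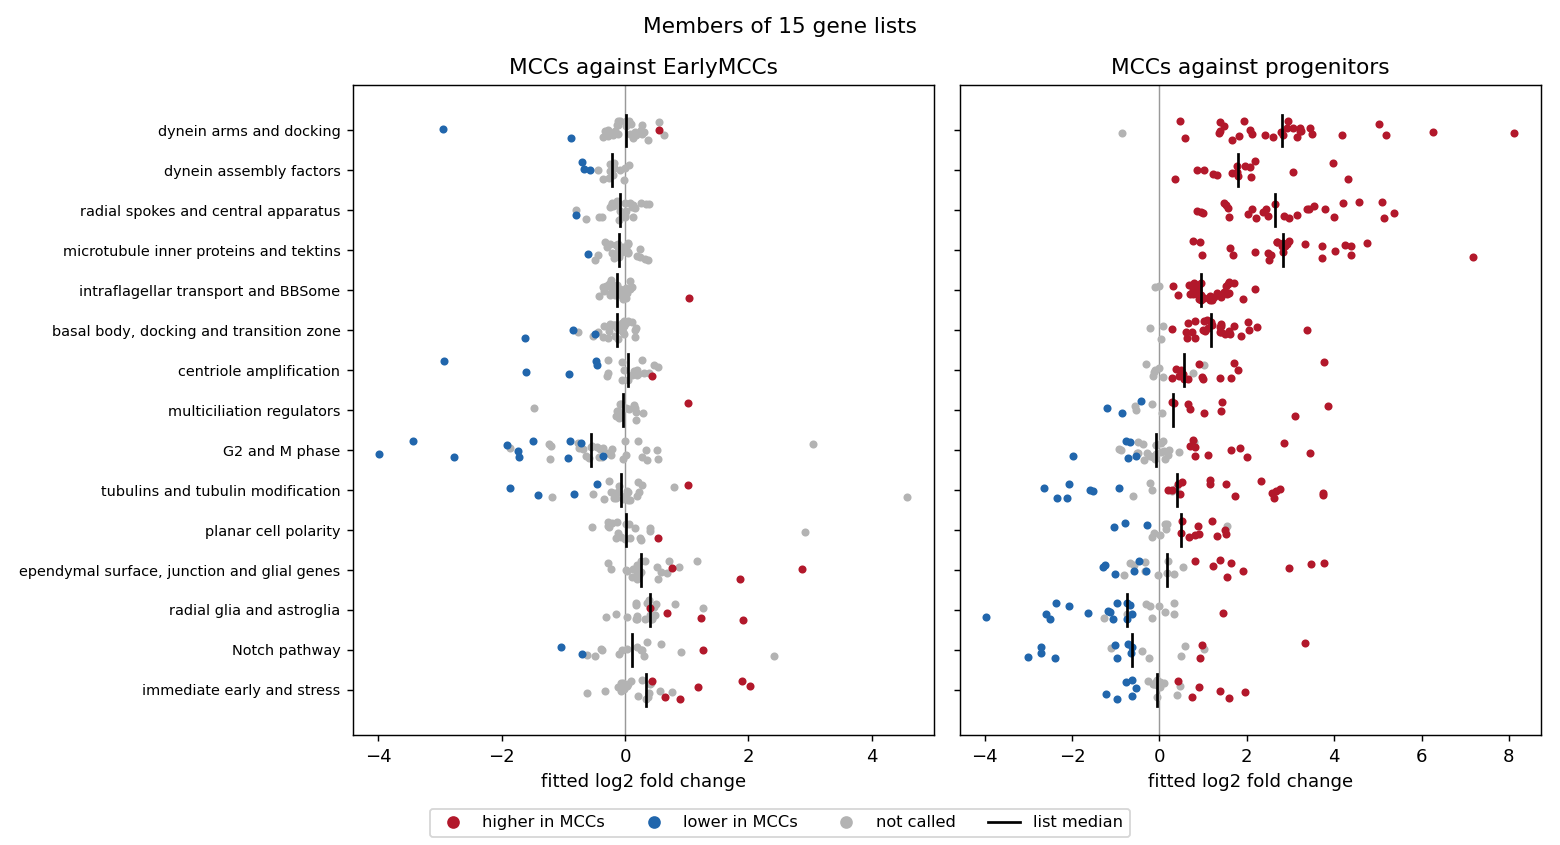
Fitted log2 fold change of each tested member of 15 gene lists, MCCs against EarlyMCCs on the left and against non-cycling progenitors on the right, with red for genes higher in MCCs, blue for lower, grey for those that did not pass (edgeR adjusted p) and a bar for the list median. Cilia lists have medians between -0.22 and 0.02 on the left and lie mostly to the right of 0 on the right. The radial glia list has a median of 0.41 on the left and -0.74 on the right.

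Set against non-cycling progenitors, MCCs differed in 9000 of 15877 genes (56.7%), with 4554 higher (28.7%) and 4446 lower (28.0%, edgeR adjusted p). The split was 5220 higher and 3570 lower with RLE factors, and 4984 and 3374 in DESeq2. This comparison uses the same MCC sums as the one with EarlyMCCs, so the 2 are not independent. Without the library term 5903 passed, and without the MCCs and progenitors of replicate 1 or of replicate 2 5059 and 6985 did. Cilia lists were higher almost throughout: 29 of 30 dynein arm genes, all 16 assembly factors, all 27 radial spoke and central apparatus genes and all 26 inner proteins and tektins. The same held for 33 of 35 intraflagellar transport and BBSome genes and 28 of 31 basal body genes. List medians were 2.81, 1.79, 2.65, 2.83, 0.95 and 1.19 in that order, beside -0.03 over all genes.

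Among single genes, Hydin was 35.5-fold higher (5.15 ± 0.23, edgeR adjusted p = 1.57e-10) and Dnah12, a dynein heavy chain, was at 208 and 182 CPM against 9.40 and 5.42 (5.03 ± 0.24, adjusted p = 5.79e-10). Dnah5, the outer arm heavy chain, was at 109 and 101 CPM against 14.3 and 17.0 (3.05 ± 0.15, adjusted p = 3.14e-12). Ift88, of intraflagellar transport, was at 153 and 161 against 34.5 and 36.1 (2.19 ± 0.12, adjusted p = 1.07e-13). The largest increases at moderate level also held Tctex1d4 (5.58 ± 0.33), Ak7 (5.11 ± 0.29), Ppp1r32 (4.94 ± 0.23), Fam183b (4.86 ± 0.24), Poln (4.79 ± 0.21), Dmkn (4.79 ± 0.23), Odf3b (4.75 ± 0.31), Hdc (4.61 ± 0.28) and Cfap299 (4.43 ± 0.23). Poln shares exons with Haus3 on the same strand in the annotation, so reads of the pair may not be separable. Trp73 (3.85 ± 0.17), a regulator of multiciliation, and Foxj1 (1.42 ± 0.35) were higher, and E2f5 (-1.21 ± 0.12) and Rfx4 (-0.86 ± 0.14) lower. Foxj1 did not pass without either library (edgeR adjusted p = 0.116 and 0.0897).

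Of the radial glia and astroglia list 1 of 24 was higher than in progenitors (Hopx, 1.46 ± 0.21, edgeR adjusted p = 4.48e-05) and 14 were lower, led by Id3 (-3.97 ± 0.31, adjusted p = 1.17e-07) and Id1 (-2.60 ± 0.22). These are 4.17% higher beside 28.7% of all genes and 58.3% lower beside 28.0%. Among the largest decreases were 2 genes of insulin-like growth factor-binding proteins, Igfbp5 at 209 and 169 CPM against 1758 and 2342 (-3.48 ± 0.60, adjusted p = 0.000259) and Igfbp3 at 11.8 and 14.0 against 101 and 118 (-3.06 ± 0.16, adjusted p = 4.92e-13). Other large decreases were Elobl, the imprinted genes Meg3 and Mest, C1ql3, Olfm2, Scpep1 and the actin-associated genes Tpm2 and Cnn2. Of 18 Notch pathway genes 9 were lower, including the receptors Notch1, Notch2 and Notch3, and 3 higher, the ligands Jag2 and Dll1 and the target Hey1. Hes5 rested on 1 UMI in replicate 1 of MCCs.

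No gene set MCCs apart from all other populations by a wide margin. Of 6444 genes with at least 20 CPM in MCCs of both libraries, 479 (7.43%) were higher there than in each of the other 12 populations in both libraries, and 16 by at least 1.5-fold. At 2-fold the only one was Synm, with 112 CPM against 43.1 in unannotated cells in replicate 1 and 80.8 against 36.9 in EarlyMCCs in replicate 2. Without replicate 1 the number at 2-fold was 4 and without replicate 2 it was 11. Labels presumably rest on the same counts, so these levels are a description without a test. For the 479 genes the next population was EarlyMCCs in 257 and 294 cases and the unannotated cells in 161 and 124.

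**Figure D4:**
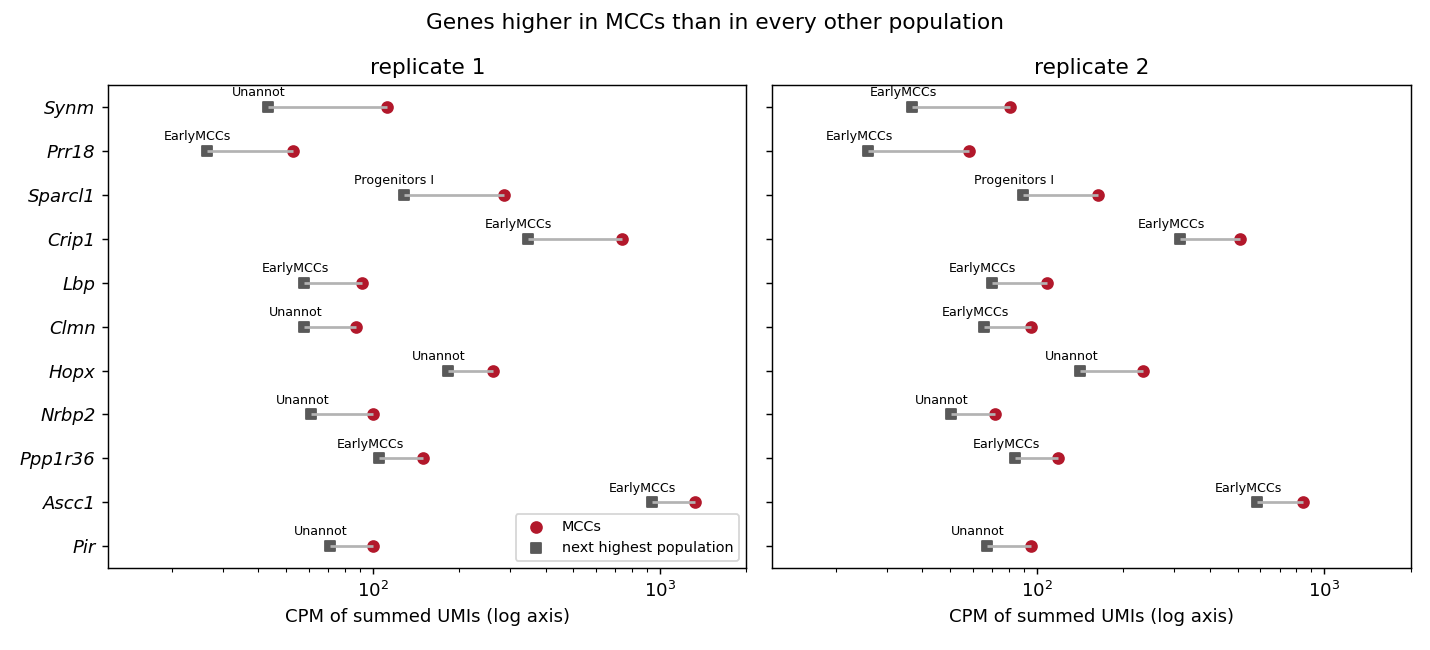
Level in CPM (log axis) of 11 of the 12 genes with the largest ratio of MCCs to the next highest population, among genes with at least 50 CPM in MCCs, for each library. Synm leads with ratios of 2.60 and 2.19, and the next population is EarlyMCCs or unannotated cells for every gene shown but Sparcl1, where it is progenitors I.

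Behind Synm came Prr18, at 52.6 and 58.2 CPM against 26.4 and 25.9 in EarlyMCCs, and Sparcl1, at 286 and 163 against 128 and 89.3 in progenitors I. Crip1, a LIM-domain protein, was at 736 and 510 against 347 and 316 in EarlyMCCs. Other genes of this kind were Lbp, Clmn, Hopx, Nrbp2, Ppp1r36, Ascc1 and Pir. By list, 10 of 27 dynein arm genes at this level were highest in MCCs, among them Dnah5, Dnah6, Dnah9, Dnah11 and Dnah12, as were 6 of 25 radial spoke and central apparatus genes and 7 of 23 ependymal surface genes. None of 15 assembly factors, 11 centriole genes or 4 G2 and M phase genes was. Inner proteins and tektins had 3 of 24, intraflagellar transport and BBSome genes 3 of 34, and basal body genes 2 of 27. Of all genes at this level 7.43% were, a smaller share than in the dynein arm, radial spoke and ependymal surface lists. Whether any list differs from that share was not tested, and the lists are short.

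When EarlyMCCs and unannotated cells were left aside, a choice made after seeing the data, 68 genes stood at least 2-fold and 9 at least 4-fold above all remaining populations. Clec3b, which encodes the plasminogen-binding protein tetranectin, was at 54.1 and 28.6 CPM against at most 6.29 and 3.20. Ldb2, a cofactor of LIM-homeodomain proteins, was at 38.6 and 42.4 against 7.82 and 6.04 in late deuterosomal cells, and Selenbp1, a selenium-binding protein, at 89.1 and 62.6 against 21.3 and 13.9. In EarlyMCCs Clec3b was at 26.5 and 17.8 CPM, Ldb2 at 31.4 and 31.9, and Selenbp1 at 60.8 and 47.8.

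Of the marker lists of other cell types, most of the summed level in MCCs lay in a few genes. These were chiefly Tagln and Acta2 of smooth muscle, Map2 of neurons, Cnp of oligodendrocytes, and Sostdc1 and Folr1 of the choroid plexus. The microglia list summed to 13.8 and 5.22 CPM in MCCs, against 19337 and 22382 in microglia, with Ptprc and Cx3cr1 at 0 in replicate 2. P2ry12 passed the test against EarlyMCCs, but on 37 and 2 UMIs in MCCs and 1 and 0 in EarlyMCCs. The neuronal list summed to 350 and 440 CPM (5633 and 7135 in neuroblasts, 298 and 432 in progenitors I), most of it Map2 (7816 and 1504 UMIs). The oligodendrocyte list summed to 338 and 296 CPM, of which Cnp made up 323 and 280. The choroid plexus list summed to 463 and 406 CPM, of which Sostdc1 made up 275 and 233 and Folr1 159 and 142, while Ttr was at 0.130 and 0 and Kl at 0 in both. The endothelial list summed to 18.4 and 24.0 CPM, with Cldn5 and Cdh5 at 0 in both. The fibroblast and mural list summed to 2699 and 3383 CPM, nearly all of it Tagln (1542 and 2150) and Acta2 (1139 and 1216), with Lum at 0 in both. It summed to 1897 and 2278 CPM in EarlyMCCs and to 7005 and 8482 in progenitors I.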

How the data were processed

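Each library holds single cells of 1 ventricular wall culture (10x Genomics, 3′ chemistry v3). The authors' deposited values are UMI counts for every gene in every cell. Per the submitters' processing notes, Cell Ranger (5.0.1 and 3 are both listed) and the mouse build mm10 were used. No source used here says how strand was used in counting, so reads of genes that overlap on opposite strands, such as Ccna1, Timp4, Pla2g7 and Synm with a neighbour, may not be separated. How populations were named and doublets treated is likewise not given. No further cell was removed, and 0 columns were left unused.

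Counts were summed per population and library for 13 populations. Fibroblasts, under 20 cells in a library, were left out. The 26 sums were fitted in edgeR 4.0.16 (R 4.3.3) with terms for population and library, TMM factors (0.739 to 1.20), the default filter on low counts and robust quasi-likelihood tests (12 residual degrees of freedom). Standard errors were obtained as log2 fold change over the square root of F. CPM do not use TMM. Library was a block since its populations grew in the same culture. Their differences between libraries correlated across genes with a median of 0.184 (lowest -0.00168, and 0.356 for MCCs with EarlyMCCs). The fit was tested on simulated data, but no outcome is given here, so this does not show how well it suits these libraries. A library left out means that the compared populations of that library were dropped, so the other populations give the spread and the lone sum is assumed to vary like them. Alternatives also included DESeq2 1.42.0, RLE factors, no filter and thinned cells.

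The members and all 21 gene lists were chosen with earlier results of these data known. Of 462 list genes 4 (Dyx1c1, Dpcd, Ccdc67 and Blbp) were not matched by symbol. Named genes are the 4 markers, the 12 strongest increases and 12 strongest decreases that passed the test, had a mean log2 CPM of 5 or more and went the same way in both libraries, and up to 2 highest and 2 lowest changes past the test in each list. The rule on strongest changes skips predicted, mitochondrial and ribosomal protein genes. They also include the 12 genes with the largest ratio to the next population at 50 CPM or more (1 of these is not reported here), and Foxj1, Gmnc, Mcidas, Deup1, Ccno, Plk4, Cdk1, Ccnb1, Mki67, Gfap, S100b, Aqp4, Cd24a, Vim and Ttr. Within MCCs they are the 5 highest and 5 lowest ratios between the libraries for genes of 100 or more UMIs. Other genes were named from the lists or as examples after their values were seen. Of the gene identifiers 99.6% matched GENCODE M21, from which gene coordinates were taken. Coordinates count from 1.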

Additional observations from a re-analysis of the deposited data

How the results depend on the processing

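Among genes changed from EarlyMCCs, 1723 in all, the count moved to 135 without the replicate block (44 higher, 91 lower), to 3243 with only the 5 lineage stages in the fit, and to between 38 and 1087 when the compared populations of 1 library were left out. With DESeq2, RLE factors, no filter, no unannotated cells, thinned cells or equal numbers of cells it stayed between 1291 and 1884. All genes called in the comparison with EarlyMCCs and still tested kept their direction under each alternative, except 13 of 1714 without replicate 1. Against progenitors, 9000 genes became 5903 without the replicate block and between 5059 and 6985 when a library was left out. The number of genes highest in MCCs, 1 at 2-fold, was 16 at 1.5-fold, 0 at 4-fold, 5 at 10 CPM, 35 without EarlyMCCs, 5 without unannotated cells, 68 without both (9 at 4-fold), and between 4 and 11 when a library was left out. The choice to leave out both was made after seeing the data. The share of MCCs was 20.8% and 6.93% of annotated cells and 43.7% and 19.6% of lineage cells. From EarlyMCCs the direction reversed without replicate 1 for Tubb3 (1.40, with -2.10 without replicate 2), Dlx5 (0.43 and -2.50), Ccno (0.14), Plk4 (0.23 and -0.45) and Ttr (-4.39 and 3.55), and without replicate 2 for Mki67 (-0.16, with 0.66 without replicate 1). Ccno reversed without the replicate block (0.0092) and in DESeq2 (0.0101). Against progenitors it reversed for Gmnc without replicate 1 (-0.11, with 0.13 without replicate 2), for Mcidas (0.24) in thinned cells and for Plk4 without replicate 2 (-0.029, with 0.54 without replicate 1). The causes were not tested. The 264 MCCs and 152 EarlyMCCs of replicate 2 limit what 1 library can show for genes with few UMIs.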

Other observations

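Of 12014 genes with at least 100 UMIs in MCCs, 244 (2.03%) differed by more than 2-fold between the 2 libraries. Immediate early genes and regulators were among the 5 largest ratios in favour of replicate 2. Socs3, a feedback inhibitor of cytokine signalling, stood at 11.3 CPM in replicate 1 and 128 in replicate 2. Fosb was at 16.3 and 109 CPM, the Notch target Hes1 at 12.0 and 78.5, and Nr4a1 at 8.24 and 53.6. Xist, the RNA of the inactive X chromosome, had 19 UMIs in replicate 1 and 638 in replicate 2. In favour of replicate 1 the 5 largest were Ifit3b (108 and 3 UMIs), Lrrc2 (304 and 10), Gstp1 (40.3 and 8.97 CPM), Ltc4s (133 and 5 UMIs) and H3f3aos (100 and 4 UMIs). EarlyMCCs of the same libraries differed the same way for 9 of the 10 genes, for example Socs3 at 11.3 and 116 CPM. H3f3aos went the other way there, at 3.94 and 5.00 CPM, and the log2 ratio of replicate 1 to replicate 2 was smaller in EarlyMCCs than in MCCs for Ltc4s (0.43 against 2.05) and Ifit3b (0.77 against 2.49). Substrain, sex, library and culture cannot be told apart for these values, and whether sex lies behind the Xist values was not tested.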
